A study of Mus musculus with 15 samples.

Results

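The SLC25 family comprises the nuclear-encoded carriers that move metabolites across the inner mitochondrial membrane. Its transcripts were followed in liver RNA-seq of C57BL/6 mice under 3 feeding regimens, to ask which carriers differed between them. Members were the protein-coding genes of the deposited count table named Slc25a followed by a number, without Slc25a13, Slc25a15 and Slc25a20. This gave 44 of 35275 listed genes, of which 40 were among the 13837 genes with enough counts to be tested. The EOD group fasted every other day for 24 h, the IF16 group fasted for 16 h, and the AL group had free access to food. Each group held 5 libraries. All mice were 3 months old at the start and 6 months old at the end of 3 months on the regimen, to which they had been assigned at random, and RNA came from the left lateral lobe. The labels state neither the hour of collection and the time since the last meal nor that each library is a separate mouse, so p-values measure the spread between libraries, which may be partly technical. In whole liver, fewer cells of a type and less RNA per cell cannot be told apart.

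SLC25 proteins are built from repeated modules, each with a conserved signature motif, and most exchange 1 substrate for another. They supply ATP synthesis with phosphate and ADP, pass citrate, malate and amino acids between mitochondria and cytosol, and bring in cofactors such as coenzyme A and NAD. In liver they link mitochondrial metabolism to fatty acid synthesis, gluconeogenesis and amino acid breakdown. In translated GENCODE vM21 coding sequences, the 44 members had 265 to 677 residues (median 318). The signature P-x-(D/E)-x-x-(K/R) occurred 3 times in 24 members, 2 times in 12, 1 time in 5 and not at all in Slc25a46, Slc25a51 and Slc25a53. Over the 946 pairs of members the median sequence identity was 27.4%, and the closest pair, Slc25a4 and Slc25a5, shared 89.6%.

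Promoter sequences are given for the member with the largest increase (Slc25a30), the increase that held in all fits tried and had an E-box in its window (Slc25a33), the largest decrease in EOD livers (Slc25a1) and the most abundant member (Slc25a47). Each is the 250 bases before the transcription start, 5′ to 3′, from RefSeq on GRCm38.p6, and capitals mark an E-box, CACGTG.
Slc25a30, chr14:75787038-75787287, minus strand: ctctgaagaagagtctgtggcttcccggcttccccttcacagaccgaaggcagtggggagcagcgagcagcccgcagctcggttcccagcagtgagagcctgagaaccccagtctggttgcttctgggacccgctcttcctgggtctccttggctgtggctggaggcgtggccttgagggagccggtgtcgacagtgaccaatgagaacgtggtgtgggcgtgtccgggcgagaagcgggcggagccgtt
Slc25a33, chr4:149774268-149774517, minus strand: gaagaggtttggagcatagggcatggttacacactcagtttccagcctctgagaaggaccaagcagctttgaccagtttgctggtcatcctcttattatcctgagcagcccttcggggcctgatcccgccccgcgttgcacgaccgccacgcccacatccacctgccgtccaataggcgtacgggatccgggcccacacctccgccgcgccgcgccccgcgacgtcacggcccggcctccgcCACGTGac
Slc25a1, chr16:17928220-17928469, minus strand: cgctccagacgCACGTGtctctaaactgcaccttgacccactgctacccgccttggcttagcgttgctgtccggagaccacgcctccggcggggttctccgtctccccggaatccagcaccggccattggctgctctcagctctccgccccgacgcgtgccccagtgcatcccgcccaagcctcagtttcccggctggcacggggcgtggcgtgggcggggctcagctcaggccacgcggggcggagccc
Slc25a47, chr12:108850879-108851128, plus strand: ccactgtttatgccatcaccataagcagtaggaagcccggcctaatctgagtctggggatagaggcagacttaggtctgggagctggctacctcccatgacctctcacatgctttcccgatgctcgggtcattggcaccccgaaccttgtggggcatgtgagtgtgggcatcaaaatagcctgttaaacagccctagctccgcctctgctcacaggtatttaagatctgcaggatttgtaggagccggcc
The E-box starts 8 bases before the RefSeq start of Slc25a33 and 239 bases before that of Slc25a1. Windows of this length were found for 33 of the 44 members, 42 windows in all, and a member was counted if any of its windows matched. The shares of the RefSeq table below are per window, so they are not the same measure. On either strand, CACGTG occurred in 5 of these 33 members (15.2%), namely Slc25a1, Slc25a14, Slc25a31, Slc25a33 and Slc25a36, against 6.02% of the 32851 windows in the RefSeq table. The sterol element TCACNCCAC occurred in 1 member, Slc25a18, against 1.05% of all windows, and the cyclic AMP element TGACGTCA in 2 members, Slc25a25 and Slc25a36, against 1.55%. A direct repeat of AGGTCA with 1 base between the copies occurred in 0 members and in 0.0335% of all windows. In no member window did 1 of these matches overlap another. A match describes letters in the window and is not evidence that a factor binds there.

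Library totals were 29581097 to 37802749 counts in EOD, 31362642 to 38147534 in IF16 and 28129883 to 33383641 in AL, so that 3 counts correspond to 0.078 to 0.107 CPM (counts divided by the library size after TMM scaling). Hepatocyte markers were abundant in every library, the 8 genes summing to 86516 to 114990 CPM in EOD, 103412 to 132833 CPM in IF16 and 85265 to 105789 CPM in AL. AL replicates 4 and 5 stood apart from the other AL libraries. The 6 acute phase genes summed to 4108 to 4963 CPM in EOD, 3632 to 5416 CPM in IF16 and 3744 to 3841 CPM in AL replicates 1 to 3, but to 16886 CPM in AL replicate 4 and 29118 CPM in AL replicate 5. EOD replicate 5 had 10.08% of its counts in mitochondrially encoded transcripts, within the AL range, where the EOD libraries began at 5.343%, the IF16 libraries spanned 8.979% to 11.47% and the AL libraries 10.01% to 15.07%. The marker counts below stand against 17.6% of all genes tested higher and 17.6% lower in EOD against AL. In IF16 against AL these shares were 1.4% higher and 2.1% lower. Sinusoidal endothelial markers summed to 139 to 178 CPM in EOD, 149 to 161 CPM in IF16 and 80.2 to 132 CPM in AL. Of these 6 markers, 4 were higher in EOD than in AL and 3 higher in IF16 than in AL. Stellate markers had 2 of 6 higher and 1 lower in EOD against AL, cholangiocyte markers 1 of 5 higher, and neutrophil markers 2 of 2 tested lower. In IF16 against AL 1 of these 2 neutrophil markers was lower. The 4 neutrophil genes summed to 1.09 to 3.84 CPM in EOD, 1.31 to 1.95 CPM in IF16 and 1.26 to 1.5 CPM in AL replicates 1 to 3. In AL replicates 4 and 5 they summed to 28.1 and 26.2 CPM. Of the macrophage (5), B and T cell (6) and erythroid (5 tested) markers, 0 passed in any comparison by edgeR or by DESeq2, and 1 B and T cell marker had an unadjusted p under 0.05 in EOD against AL and 1 in EOD against IF16. Of the acute phase genes 4 were lower in EOD than in AL and 1 lower in IF16 than in AL, and 1 of 8 hepatocyte markers was lower in EOD than in AL. The 5 adipocyte markers had too few counts to be tested. The part of these differences in the carrier results was not tested.

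Carrier transcripts covered a wide range of levels, and a few members held most of the total. By mean FPKM over the 15 libraries (deposited values scaled by gene length and library total, comparable between genes), 5 members were above 100, 11 lay between 10 and 100, 15 between 1 and 10, and 13 below 1. Slc25a47, a liver-enriched carrier, led with a mean of 507 FPKM. It was followed by Slc25a5, which exchanges ADP for ATP, at 335 FPKM, the glutathione carrier Slc25a39 at 250 FPKM, the citrate carrier Slc25a1 at 130 FPKM and the dicarboxylate carrier Slc25a10 at 105 FPKM. The summed FPKM of all 44 members averaged 1755 ± 194 in EOD, 1845 ± 232 in IF16 and 1707 ± 169 in AL (SD, n = 5 each), so the group means differed by less than the spread within a group. The share of Slc25a47 in that sum was 29.9% ± 4.51 in EOD, 32.9% ± 3.77 in IF16 and 22.3% ± 1.66 in AL. At the low end, Slc25a31, Slc25a41, Slc25a43 and Slc25a54 had too few counts to be tested, among them Slc25a31, the testis form of the adenine nucleotide translocator, with at most 0.078 CPM in an EOD library, 0.0986 CPM in an IF16 library and 0.392 CPM in an AL library. Slc25a43 reached at most 0.0551 CPM in EOD, 0.0901 CPM in IF16 and 0.135 CPM in AL. Slc25a41 was detected in IF16 replicates 1 to 3, by 1 count each, and Slc25a54 had 0 counts in all 15 libraries, which allows up to 0.078 to 0.107 CPM, depending on the library.

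**Figure D1:**
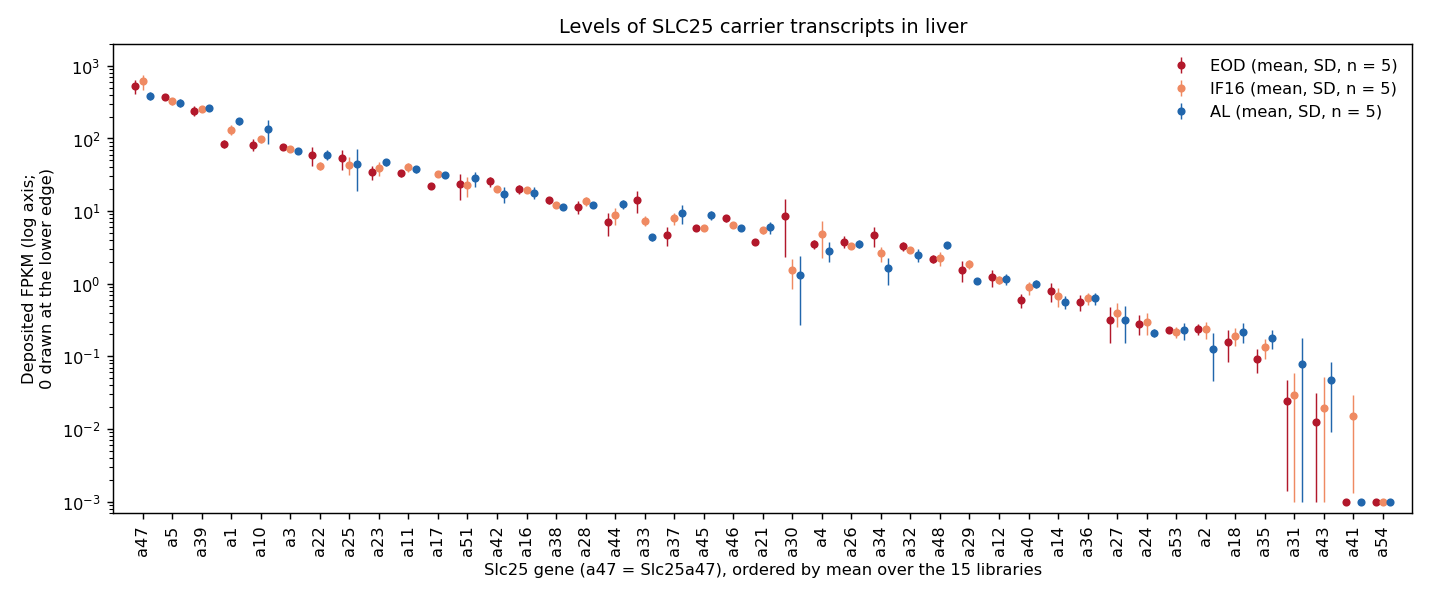
Mean deposited FPKM of the carriers, without 1 that is not reported, on a log axis, with SD over 5 libraries, for EOD, IF16 and AL from left to right within each gene. Slc25a47 leads in all 3 groups, and the 13 carriers with means below 1 FPKM lie at the right.

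EOD feeding moved many carriers in both directions, and IF16 few. Against AL, 20 of the 40 tested carriers passed in EOD livers (50%, against 35.2% of all genes tested), 9 higher (22.5%, against 17.6% of all genes) and 11 lower (27.5%, against 17.6% of all genes). In IF16 livers 4 carriers passed against AL (10%, against 3.5% of all genes), 2 higher (5.0%, against 1.4%) and 2 lower (5.0%, against 2.1%), while 13 had an unadjusted p under 0.05. Between EOD and IF16, 9 passed (22.5%, against 16.1% of all genes), 5 higher in EOD (12.5%, against 7.96%) and 4 lower (10%, against 8.15%). The median log2 fold change of the carriers was 0.00 in EOD against AL, 0.03 in IF16 against AL and -0.05 in EOD against IF16, beside -0.01, 0.00 and 0.00 over all genes tested. In EOD against AL 20 carriers lay above 0 and 20 below. The groups did not overlap in 13 of the 20 carriers called in EOD against AL (65%, against 51.4% of all genes called), in all 4 called in IF16 against AL (against 75.4% of all genes called) and in 5 of the 9 called in EOD against IF16 (55.6%, against 55.0% of all genes called). Whether called or not, the groups were separate in 14 of the 40 tested carriers in EOD against AL (35%, against 18.6% of all genes tested), in 6 in IF16 against AL (15%, against 5.78%) and in 5 in EOD against IF16 (12.5%, against 10.9%). All 3 comparisons together called 21 carriers, and 19 of the tested carriers passed in none. The like share of all genes was not computed, so this count has no background beside it. EOD and IF16 were both compared with the same AL libraries.

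**Figure D2:**
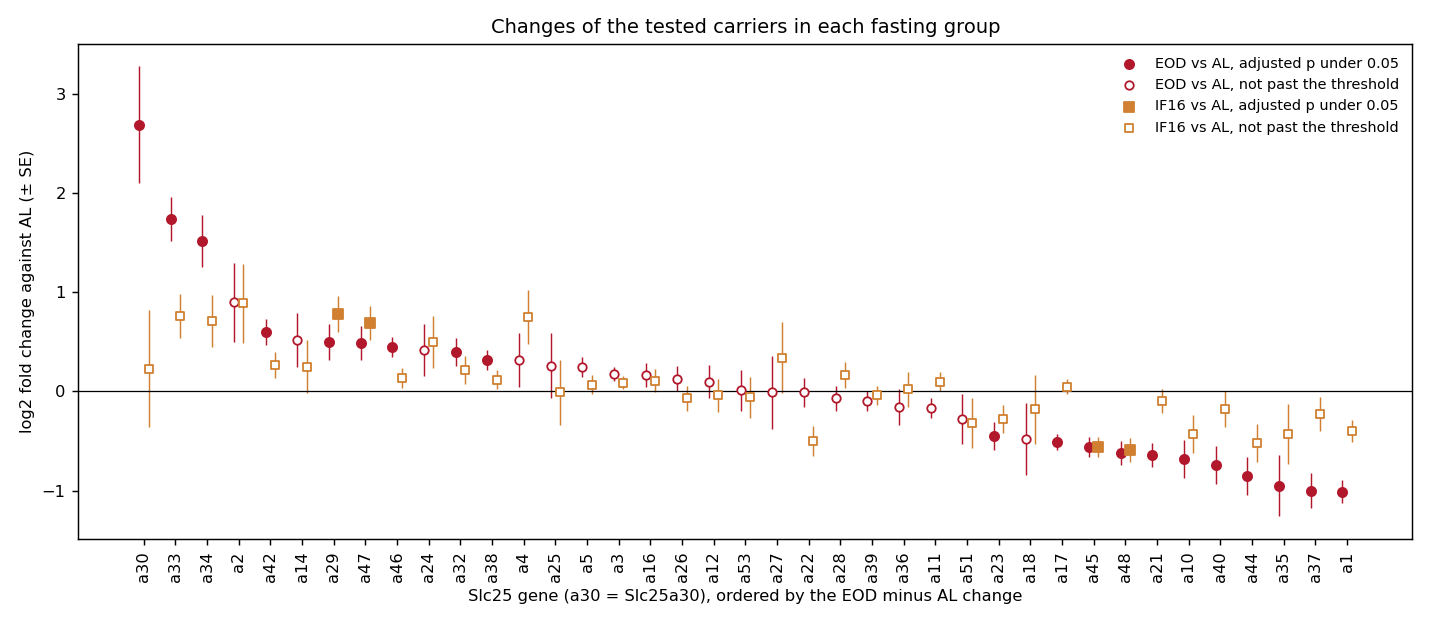
Log2 fold change against AL (± SE, edgeR) of the tested carriers, without 1 that is not reported, in EOD (circles) and IF16 (squares), filled where the adjusted p was under 0.05. Slc25a30, Slc25a33 and Slc25a34 lie highest in EOD and Slc25a1 and Slc25a37 lowest.

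Among the carriers of di- and tricarboxylates and keto acids, 1 of 6 rose (16.7%, against 17.6% of all genes tested) and 4 fell (66.7%, against 17.6%) in EOD against AL, with a median log2 fold change of -0.66. In IF16 against AL edgeR called 0 of the 6, with 3 at an unadjusted p under 0.05, and DESeq2 called 1, Slc25a1. Slc25a1 exports citrate, from which the cytosol makes acetyl-CoA for fatty acids and sterols (chromosome 16, 17925211 to 17928219, mm10). It stood at 157, 150, 166, 124 and 120 CPM in the EOD libraries, 243, 237, 209, 176 and 235 CPM in the IF16 libraries and 306, 305, 305, 255 and 275 CPM in the AL libraries. The groups formed 3 separate steps with EOD lowest and AL highest. Slc25a1 was 2.02-fold lower in EOD than in AL (log2 fold change -1.01, SE 0.12, adjusted p = 8.27e-06) and 1.53-fold lower in EOD than in IF16 (log2 fold change -0.62, SE 0.12, adjusted p = 0.00185). The difference of IF16 from AL was -0.40 (SE 0.11) and missed the threshold (adjusted p = 0.0646), although the libraries did not overlap.

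Slc25a10 exchanges malate and succinate for phosphate. Its values were 199, 153, 188, 129 and 165 CPM in EOD, 209, 218, 182, 190 and 191 CPM in IF16 and 351, 344, 295, 166 and 179 CPM in AL. The AL libraries fell into a high set, replicates 1 to 3, and a low set, replicates 4 and 5, which lay within the EOD range. The log2 fold change of EOD against AL was -0.68 (SE 0.19, adjusted p = 0.0101), and without AL replicates 4 and 5 it was -0.96. Slc25a21 carries 2-oxoadipate, a product of lysine and tryptophan breakdown. It had 8.22, 9.95, 11.2, 10.1 and 10.2 CPM in EOD, 14.6, 16.7, 13.8, 14.3 and 12.3 CPM in IF16 and 18.3, 16.4, 16, 13.7 and 12.6 CPM in AL. All EOD libraries lay below all others, and Slc25a21 was 1.55-fold lower in EOD than in AL (adjusted p = 0.000673) and 1.45-fold lower in EOD than in IF16 (adjusted p = 0.00639).

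Slc25a34 and Slc25a35 are related to the oxaloacetate carrier of yeast and share 52.7% of their residues, and they moved in opposite directions. Slc25a34 stood at 15.9, 9.64, 9.1, 11.3 and 15.4 CPM in EOD, 6.16, 6.2, 5.03, 9.2 and 8.24 CPM in IF16 and 4.98, 6.6, 4.08, 2.04 and 3.65 CPM in AL. EOD and AL were separate, and EOD met IF16 only at 9.1 and 9.2 CPM. Slc25a34 was 2.87-fold higher in EOD than in AL (log2 fold change 1.52, SE 0.26, adjusted p = 0.000315) and 1.76-fold higher in EOD than in IF16 (adjusted p = 0.0345). The second of these calls was lost when EOD replicate 1 or any of IF16 replicates 1, 2 and 3 was left out. Slc25a35 was close to the detection floor, at 0.182, 0.248, 0.498, 0.365 and 0.407 CPM in EOD, 0.661, 0.336, 0.559, 0.373 and 0.486 CPM in IF16 and 0.83, 0.829, 0.555, 0.588 and 0.439 CPM in AL. Its log2 fold change in EOD against AL was -0.95 (SE 0.31, adjusted p = 0.0254), with overlapping groups, and the call was lost without EOD replicate 1 or 2 or AL replicate 1 or 2. On log2(FPKM + 1) with no filter it shrank to -0.11. Of its 3677 exonic bases, 1151 are shared with Rangrf on the opposite strand, and the strand setting of the counting is not known here. The oxoglutarate carrier Slc25a11, the remaining member of this role, had 57.1 ± 6.11 CPM in EOD, 68.8 ± 7.77 CPM in IF16 and 64.1 ± 5.74 CPM in AL (SD, n = 5 each).

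**Figure D3:**
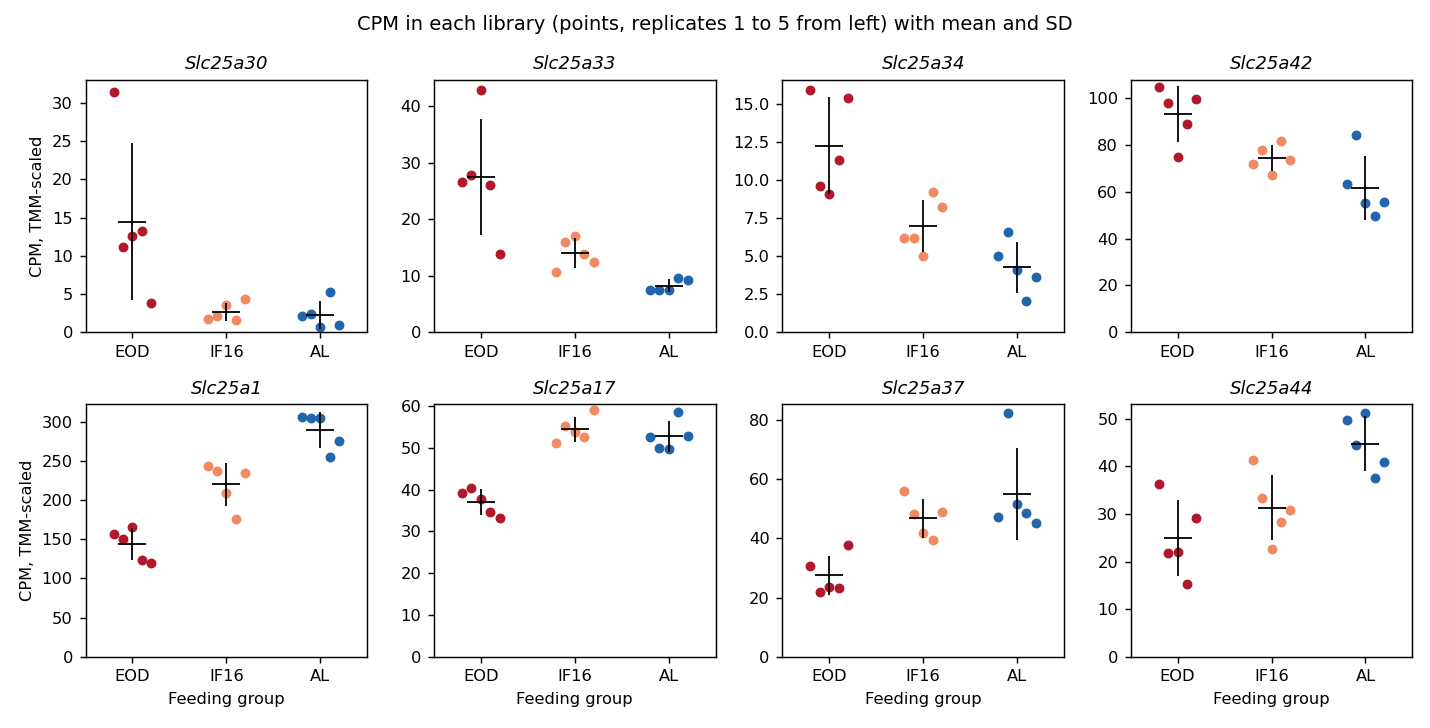
TMM-scaled CPM of 8 carriers in each library, replicates 1 to 5 from left within a group, with mean and SD as black marks and every axis starting at 0. EOD replicate 5 is the lowest EOD library for Slc25a30 (3.82 CPM) and Slc25a33 (13.8 CPM).

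Of the carriers of cofactors and pyrimidine nucleotides, 3 of 9 rose and 1 fell in EOD against AL (44.4% called, near the 35.2% of all genes tested). In IF16 against AL edgeR called 0 of the 9, with 2 at an unadjusted p under 0.05, and DESeq2 called 1, Slc25a33. Slc25a33 imports pyrimidine nucleotides, which mitochondria use for their own nucleic acids (chromosome 4, 149744036 to 149774277, mm10). It stood at 26.6, 27.9, 42.9, 26.1 and 13.8 CPM in EOD, 10.6, 16, 17.1, 13.8 and 12.5 CPM in IF16 and 7.38, 7.49, 7.38, 9.64 and 9.32 CPM in AL. Every EOD and every IF16 library exceeded every AL library, while EOD replicate 5 lay within the IF16 range. Slc25a33 was 3.33-fold higher in EOD than in AL (log2 fold change 1.74, SE 0.22, adjusted p = 2.83e-05) and 1.96-fold higher in EOD than in IF16 (log2 fold change 0.97, SE 0.21, adjusted p = 0.00635). IF16 against AL gave 0.76 (SE 0.22, adjusted p = 0.0624). Its promoter is the one above with an E-box 8 bases before the RefSeq start. The gene span of the count table reaches past that start, to 149774277, so the E-box lies inside this span. Of its 1887 exonic bases, 281 overlap an antisense gene, Gm13068. The related Slc25a36, with 62.0% identity to it, also carries pyrimidine nucleotides and has an E-box in its window. It passed in no comparison, at 2.94 ± 0.631 CPM in EOD, 3.31 ± 0.644 CPM in IF16 and 3.28 ± 0.561 CPM in AL (SD, n = 5 each).

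Slc25a17 and Slc25a42 both carry coenzyme A, Slc25a17 in the peroxisomal and Slc25a42 in the mitochondrial membrane, and in EOD livers they moved apart. Slc25a17 stood at 39.1, 40.4, 37.8, 34.6 and 33.2 CPM in EOD, 51.2, 55.3, 53.8, 52.6 and 59.1 CPM in IF16 and 52.6, 49.9, 49.6, 58.6 and 52.9 CPM in AL. The EOD libraries lay below all 10 others. It was 1.42-fold lower in EOD than in AL (log2 fold change -0.51, SE 0.08, adjusted p = 0.000238) and 1.47-fold lower in EOD than in IF16 (log2 fold change -0.56, SE 0.08, adjusted p = 0.000361). Slc25a42 had 105, 98.1, 74.9, 89.2 and 99.7 CPM in EOD, 71.8, 78, 67.4, 82 and 73.6 CPM in IF16 and 63.3, 84.3, 55.3, 49.6 and 55.8 CPM in AL. EOD replicate 3 and AL replicate 2 were the libraries that made the groups overlap, and Slc25a42 was 1.52-fold higher in EOD than in AL (log2 fold change 0.60, SE 0.13, adjusted p = 0.00197). Slc25a32, which carries folate and FAD, had 10.8, 7.58, 9.92, 11.3 and 9.03 CPM in EOD, 8.29, 8.43, 8.88, 7.74 and 9.34 CPM in IF16 and 6.27, 6.01, 8.42, 9.64 and 6.35 CPM in AL. Its increase in EOD against AL was small beside the overlap (log2 fold change 0.40, SE 0.14, adjusted p = 0.0368) and was lost when any of EOD replicates 1, 3 and 4 or AL replicates 1, 2 and 5 was left out. The cofactor carriers Slc25a16, Slc25a26 (S-adenosylmethionine) and Slc25a51 (NAD) passed in no comparison. Slc25a16 had 63.3 ± 10.3 CPM in EOD, 60.7 ± 2.42 CPM in IF16 and 56.2 ± 9.23 CPM in AL (SD, n = 5 each). Slc25a26 had 7.34 ± 1.47 CPM in EOD, 6.38 ± 0.347 CPM in IF16 and 6.7 ± 0.678 CPM in AL (SD, n = 5 each). Slc25a51 varied widely within groups, from 65 to 159 CPM in EOD, 72.4 to 148 CPM in IF16 and 75.8 to 153 CPM in AL.

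Slc25a30, a relative of the uncoupling proteins first described in kidney, had the largest fold change of the family (chromosome 14, 75761999 to 75787037, mm10). It stood at 31.5, 11.2, 12.6, 13.3 and 3.82 CPM in EOD, 1.71, 2.08, 3.52, 1.65 and 4.29 CPM in IF16 and 2.06, 2.35, 0.62, 5.29 and 0.979 CPM in AL. EOD replicates 1 to 4 exceeded every IF16 and AL library, replicate 1 by far the most, and EOD replicate 5 lay inside both other ranges. Slc25a30 was 6.44-fold higher in EOD than in AL (log2 fold change 2.69, SE 0.59, adjusted p = 0.00332) and 5.47-fold higher in EOD than in IF16 (log2 fold change 2.45, SE 0.58, adjusted p = 0.0121). Without EOD replicate 1 the log2 fold changes were 2.18 against AL and 1.95 against IF16, without AL replicate 4 the difference from AL was 3.27, and on log2(FPKM + 1) the values were 1.90 against AL and 1.71 against IF16. Its closest relative, Slc25a14, with 79.7% identity, had 1.49 ± 0.465 CPM in EOD, 1.25 ± 0.373 CPM in IF16 and 1.05 ± 0.221 CPM in AL (SD, n = 5 each). The third uncoupling-like carrier, Slc25a27, had 0.848 ± 0.405 CPM in EOD, 1.07 ± 0.405 CPM in IF16 and 0.854 ± 0.431 CPM in AL (SD, n = 5 each), and neither passed in any comparison. The printed Slc25a30 window holds none of the 4 motifs searched.

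Mitoferrins bring iron into the matrix for heme and iron-sulfur clusters. Of the 2, 1 passed in EOD against AL (50%, against 35.2% of all genes tested) and in EOD against IF16 (50%, against 16.1%). In IF16 against AL 0 passed by edgeR or DESeq2, and 0 had an unadjusted p under 0.05. Slc25a37, mitoferrin-1, is best known from red cell precursors (chromosome 14, 69241848 to 69285112, mm10). It had 30.7, 22, 23.7, 23.2 and 37.6 CPM in EOD, 56, 48.1, 41.7, 39.3 and 49 CPM in IF16 and 47.3, 82.1, 51.7, 48.4 and 45.1 CPM in AL. The EOD libraries lay below all 10 others, and AL replicate 2 stood alone at the top. Slc25a37 was 2.00-fold lower in EOD than in AL (log2 fold change -1.0, SE 0.18, adjusted p = 0.00043) and 1.71-fold lower in EOD than in IF16 (log2 fold change -0.77, SE 0.18, adjusted p = 0.00733). Of its 6021 exonic bases, 381 overlap Gm31748 and 92 overlap Gm27223, both on the opposite strand. The erythroid markers summed to 275 to 504 CPM in EOD, 255 to 435 CPM in IF16 and 202 to 593 CPM in AL. Of the 5 tested 0 passed by edgeR or DESeq2 and 0 had an unadjusted p under 0.05. The part of red cell precursors in the Slc25a37 values was not tested. Slc25a28, mitoferrin-2, had 21.1, 16, 21.1, 12.4 and 16.3 CPM in EOD, 23.1, 19.4, 19.6, 18.6 and 22.1 CPM in IF16 and 17.6, 20.4, 18.1, 17.7 and 17.5 CPM in AL, with overlapping groups.

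Of the 9 carriers of amino acids and glutathione, 2 rose and 2 fell in EOD against AL (44.4% called, near the 35.2% of all genes tested). In IF16 against AL edgeR called 1 of the 9, Slc25a29, as higher (11.1%, against 3.5% of all genes), with 4 at an unadjusted p under 0.05, and DESeq2 also called Slc25a22 as lower. Slc25a44 carries branched-chain amino acids into mitochondria. It stood at 36.2, 21.8, 21.9, 15.3 and 29.2 CPM in EOD, 41.4, 33.4, 22.7, 28.2 and 30.9 CPM in IF16 and 49.7, 44.4, 51.2, 37.6 and 40.9 CPM in AL. EOD lay below AL in every library and overlapped IF16, and Slc25a44 was 1.80-fold lower in EOD than in AL (log2 fold change -0.85, SE 0.19, adjusted p = 0.00303). Slc25a39 and Slc25a40 belong to the glutathione carriers and share 52.4% of their residues. Slc25a40 had 1.61, 1.35, 1.95, 2.22 and 1.22 CPM in EOD, 3.15, 2.26, 2.5, 2.08 and 2.3 CPM in IF16 and 2.98, 2.49, 2.84, 2.32 and 3.27 CPM in AL. It was 1.67-fold lower in EOD than in AL without overlap (adjusted p = 0.00595). The far more abundant Slc25a39 passed in no comparison, at 492, 403, 440, 340 and 356 CPM in EOD, 438, 432, 394, 405 and 444 CPM in IF16 and 437, 411, 439, 430 and 455 CPM in AL.

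Slc25a38 imports glycine, with which heme synthesis begins. It stood at 29.4, 24.8, 27.7, 22.7 and 22.2 CPM in EOD, 22, 21.2, 21.2, 23.2 and 22.9 CPM in IF16 and 20.4, 22.9, 18.9, 18.6 and 20.9 CPM in AL. The groups overlapped by AL replicate 2, the difference of EOD from AL was 1.25-fold (log2 fold change 0.32, SE 0.10, adjusted p = 0.0153), and the call was lost without AL replicates 4 and 5. The glutamate carrier Slc25a22 had 244, 154, 157, 163 and 244 CPM in EOD, 115, 146, 120, 157 and 148 CPM in IF16 and 199, 228, 211, 177 and 156 CPM in AL. IF16 held the lowest mean, with a log2 fold change of -0.50 against AL (SE 0.15, adjusted p = 0.0792 by edgeR). EOD was 1.40-fold higher than IF16 (log2 fold change 0.49, SE 0.15, adjusted p = 0.0376), and EOD and AL had like means, 192 CPM in EOD and 194 CPM in AL. That call was lost without EOD replicate 1 or 5 or any of IF16 replicates 1, 2, 3 and 5. Its relative Slc25a18 lay near the detection floor, at 0.234, 0.165, 0.107, 0.199 and 0.345 CPM in EOD, 0.18, 0.183, 0.296, 0.293 and 0.351 CPM in IF16 and 0.172, 0.38, 0.228, 0.346 and 0.371 CPM in AL. The aspartate-glutamate carrier Slc25a12, at 7.86 ± 2.06 CPM in EOD, 7.14 ± 0.7 CPM in IF16 and 7.32 ± 1.29 CPM in AL, passed in no comparison (SD, n = 5 each). The ornithine carrier Slc25a2 did not pass either, at 0.324 ± 0.0612 CPM in EOD, 0.319 ± 0.0891 CPM in IF16 and 0.173 ± 0.112 CPM in AL (SD, n = 5 each).

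The carriers of adenine nucleotides and phosphate, which serve ATP synthesis, had 1 call by edgeR in the 6 tested in EOD against AL (16.7%, against 35.2% of all genes). DESeq2 called 3 there, Slc25a3 and Slc25a5 as higher and Slc25a23 as lower. Slc25a5, the adenine nucleotide translocator of most tissues, had 455, 443, 512, 468 and 411 CPM in EOD, 431, 443, 420, 344 and 388 CPM in IF16 and 440, 324, 400, 401 and 362 CPM in AL. By edgeR it missed the threshold in EOD against AL (log2 fold change 0.25, SE 0.10, adjusted p = 0.0696). The phosphate carrier Slc25a3 had 306 ± 11.2 CPM in EOD, 287 ± 5.95 CPM in IF16 and 270 ± 9.29 CPM in AL (SD, n = 5 each), with EOD above AL in every library and an adjusted p of 0.065 by edgeR. The edgeR call went to Slc25a23, a calcium-regulated carrier of ATP-Mg and phosphate, at 125, 123, 115, 80.1 and 135 CPM in EOD, 168, 132, 103, 128 and 118 CPM in IF16 and 178, 155, 162, 146 and 149 CPM in AL. EOD lay below AL in every library, and Slc25a23 was 1.36-fold lower (log2 fold change -0.45, SE 0.14, adjusted p = 0.0192), a call that was lost without AL replicate 1. Its relative Slc25a25 spread widely, with 269, 138, 163, 169 and 194 CPM in EOD, 93.7, 178, 153, 136 and 211 CPM in IF16 and 256, 239, 118, 77.1 and 87.2 CPM in AL. Slc25a24, of the same subfamily, was far lower, at 0.972 ± 0.321 CPM in EOD, 1.02 ± 0.304 CPM in IF16 and 0.72 ± 0.0832 CPM in AL (SD, n = 5 each).

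Slc25a4 is the adenine nucleotide translocator of heart and skeletal muscle, and 1 library carried most of its variation. It stood at 5.23, 8.04, 7.25, 7.36 and 6.33 CPM in EOD, 7.57, 7.51, 6.94, 6.32 and 17.8 CPM in IF16 and 6.47, 5.7, 7.41, 4.01 and 3.75 CPM in AL. In IF16 replicate 5 the muscle genes Acta1, Tnnt3, Mylpf, Ckm and Myh4 stood at 45.8, 28.4, 11.9, 7.86 and 4.43 CPM, and the 5 summed to at most 2.74 CPM in the EOD libraries and 3.18 CPM in the AL libraries. The part of these transcripts in the Slc25a4 value was not tested. Slc25a4 passed in no comparison.

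The 4 carriers called in IF16 against AL were called in the same direction in EOD against AL, 2 higher and 2 lower. They are Slc25a47, Slc25a29, Slc25a45 and Slc25a48, which share 40.9% to 46.5% of their residues, and each has its closest relative in the family among the other 3. This was noticed after their values were seen. Slc25a29 carries basic amino acids, and the substrates of the others are less settled. Slc25a47 and Slc25a29 lie next to each other on chromosome 12, on opposite strands with 15246 bases between them (Slc25a29 at 108825873 to 108835883, Slc25a47 at 108851129 to 108856814, mm10).

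Slc25a47 stood at 946, 1018, 976, 712 and 548 CPM in EOD, 1116, 1241, 877, 731 and 861 CPM in IF16 and 609, 582, 719, 544 and 545 CPM in AL. Every IF16 library exceeded every AL library, and EOD replicates 4 and 5 fell within the AL range. The increase was 1.61-fold in IF16 against AL (log2 fold change 0.69, SE 0.17, adjusted p = 0.0312) and 1.40-fold in EOD against AL (log2 fold change 0.49, SE 0.17, adjusted p = 0.0336). Slc25a29 had 4.47, 2.53, 2.56, 2.35 and 3.32 CPM in EOD, 3.72, 4.34, 3.16, 3.39 and 3.92 CPM in IF16 and 2.12, 2.28, 2.35, 1.87 and 2.19 CPM in AL. IF16 was wholly above AL, and the lowest EOD and the highest AL library both rounded to 2.35 CPM. Slc25a29 was 1.71-fold higher in IF16 than in AL (log2 fold change 0.78, SE 0.18, adjusted p = 0.0213) and 1.41-fold higher in EOD than in AL (log2 fold change 0.50, SE 0.18, adjusted p = 0.0382). None of these 4 calls held without AL replicates 4 and 5, where the log2 fold changes of Slc25a47 were 0.43 in EOD and 0.61 in IF16 and those of Slc25a29 were 0.47 in EOD and 0.73 in IF16. Single libraries decided them too. For Slc25a47, the IF16 call was lost without any of IF16 replicates 1, 2, 3 and 5 or AL replicates 1, 2, 4 and 5, and the EOD call without any of EOD replicates 1 to 3 or AL replicates 2, 4 and 5. For Slc25a29, the IF16 call was lost without IF16 replicate 2 or 5 or AL replicate 4, and the EOD call without EOD replicate 1 or AL replicate 1, 2, 4 or 5.

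The 2 decreases kept their calls whichever single library was left out, and also without AL replicates 4 and 5. The IF16 call of Slc25a48 was lost with limma on log2(FPKM + 1) without a filter (limma adjusted p = 0.0506). Slc25a45 stood at 15.6, 13.8, 15.4, 15.4 and 16.3 CPM in EOD, 15.4, 17.4, 15.1, 14.9 and 13.7 CPM in IF16 and 24.2, 24.4, 24.3, 19.6 and 20.1 CPM in AL. Both fasting groups lay wholly below AL, and their means were the same to 3 digits, 15.3 CPM. Slc25a45 was 1.47-fold lower in IF16 than in AL (log2 fold change -0.56, SE 0.10, adjusted p = 0.00396) and 1.47-fold lower in EOD than in AL (log2 fold change -0.56, SE 0.10, adjusted p = 0.000353). Slc25a48 had 7.8, 6.83, 7.29, 6.99 and 8.34 CPM in EOD, 9.85, 7.48, 6.77, 7.87 and 6.29 CPM in IF16 and 12.9, 11.1, 12, 10.1 and 11.2 CPM in AL. Here too every AL library was above every fasting library, and Slc25a48 was 1.5-fold lower in IF16 than in AL (log2 fold change -0.59, SE 0.12, adjusted p = 0.013) and 1.54-fold lower in EOD than in AL (log2 fold change -0.62, SE 0.12, adjusted p = 0.000962).

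**Figure D4:**
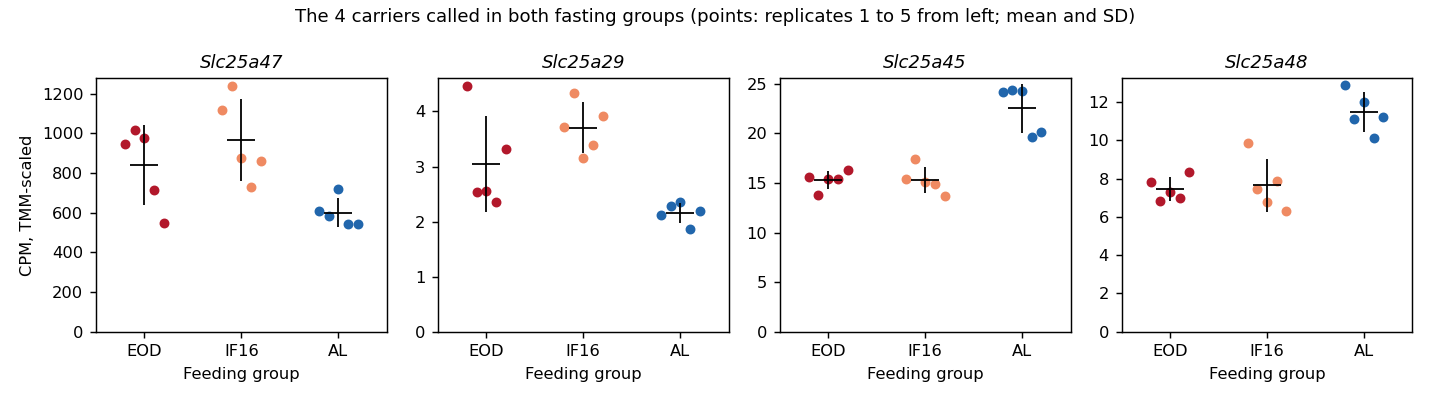
TMM-scaled CPM of Slc25a47, Slc25a29, Slc25a45 and Slc25a48 in each library, with mean and SD as black marks and every axis starting at 0. Slc25a45 and Slc25a48 have every fasting library below every AL library, while Slc25a47 in EOD reaches from 548 to 1018 CPM across the AL range of 544 to 719 CPM.

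Slc25a46 sits in the outer membrane, where it takes part in mitochondrial fission and fusion. It had 38.6, 37.6, 37.6, 30.2 and 29.7 CPM in EOD, 29.1, 28.9, 29.3, 28.6 and 24.3 CPM in IF16 and 26.3, 21.7, 28.1, 26.3 and 24.7 CPM in AL. EOD was above both other groups in every library, by 1.37-fold over AL (log2 fold change 0.45, SE 0.10, adjusted p = 0.00277) and by 1.24-fold over IF16 (log2 fold change 0.31, SE 0.10, adjusted p = 0.0478). The second call was lost without any of EOD replicates 1 to 3, IF16 replicates 2 to 5 or AL replicates 4 and 5. Slc25a53, without a settled role, had 0.934 ± 0.0651 CPM in EOD, 0.887 ± 0.144 CPM in IF16 and 0.927 ± 0.219 CPM in AL (SD, n = 5 each).

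Ratios within a library set 4 pairs of related carriers against each other, as log2 of (FPKM + 0.1) of the first over the second, by two-sided exact permutation tests adjusted over the 12 comparisons, where the smallest possible p is 0.00794. Slc25a37 over Slc25a28 averaged -1.30 ± 0.40 in EOD, -0.78 ± 0.11 in IF16 and -0.41 ± 0.26 in AL (SD, n = 5 each). No EOD or IF16 library reached the AL range, the difference from AL was -0.88 in EOD and -0.37 in IF16, and both had an exact p of 0.00794 and an adjusted p of 0.0318. The EOD call was lost when any 1 of AL replicates 1 to 5 was left out (exact p = 0.0159 and exact adjusted p = 0.0636 each). The groups stayed separate in each of these cases, with differences of -0.93 to -0.77. With so few regroupings the exact p moves in coarse steps, so these losses do not show a weaker difference. The IF16 call was lost, for example, without AL replicate 2, where the difference was -0.25, and without IF16 replicate 1 or 2 (exact adjusted p = 0.0636 each). Without AL replicates 4 and 5 the differences were larger, -0.98 in EOD (exact p = 0.0357) and -0.46 in IF16 (exact p = 0.0179), but 3 libraries against 5 allow no exact p below 0.0179, and both adjusted to 0.0794. EOD against IF16 gave -0.52 (exact adjusted p = 0.0951), which passed at -0.65 without EOD replicate 5. Slc25a18 over Slc25a22 was 0.67 lower in EOD than in IF16 on the log2 scale (exact adjusted p = 0.0318), with Slc25a18 near the floor and Slc25a22 higher in EOD. Slc25a4 over Slc25a5 averaged -6.67 ± 0.24 in EOD, -6.17 ± 0.62 in IF16 and -6.76 ± 0.40 in AL, so the muscle form stayed far below the common form everywhere (SD, n = 5 each). Slc25a25 over Slc25a24 averaged 7.10 ± 0.60 in EOD, 6.76 ± 0.74 in IF16 and 6.98 ± 0.76 in AL (SD, n = 5 each). Neither of these pairs passed in any comparison.

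**Figure D5:**
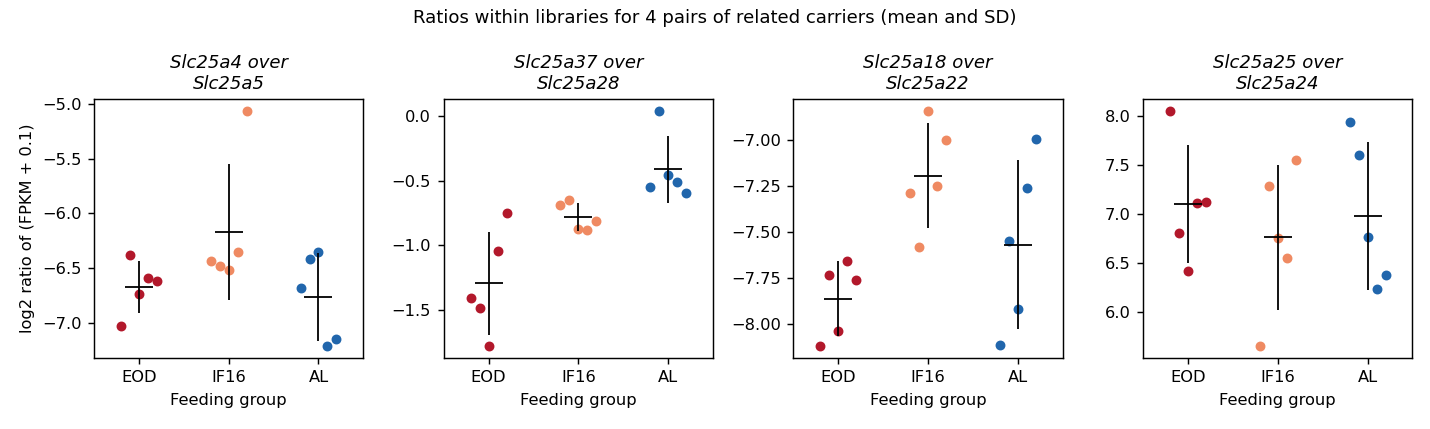
Log2 ratio of (FPKM + 0.1) within each library for 4 carrier pairs, with mean and SD as black marks; each panel has its own range and does not start at 0. Slc25a37 over Slc25a28 is lower in all EOD and IF16 libraries than in any AL library, and IF16 replicate 5 stands alone at -5.07 for Slc25a4 over Slc25a5.

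Counts in the lists of genes that work beside the carriers stand against 35.2% of all genes tested called in EOD against AL (17.6% higher and 17.6% lower), 3.5% in IF16 against AL and 16.1% in EOD against IF16. Of the carrier genes outside the rule, 5 of 6 tested rose in EOD against AL (83.3%). In IF16 against AL edgeR and DESeq2 called 0 of them, with 3 at an unadjusted p under 0.05. Slc25a20, which carries acylcarnitines, had 207 ± 31.0 CPM in EOD and 114 ± 12.9 CPM in AL (log2 fold change 0.86, SE 0.13, adjusted p = 8.13e-05), and Slc25a13, an aspartate-glutamate carrier, had 201 ± 28.6 CPM in EOD and 146 ± 17.2 CPM in AL (log2 fold change 0.46, adjusted p = 0.00482; SD, n = 5 each). In the pathway that imports carriers, 9 of 15 rose and 1 fell in EOD against AL (66.7% called). Tomm20, an outer membrane receptor, was 2.24-fold higher (adjusted p = 0.000896), and Timm10, an intermembrane chaperone of carriers, 1.67-fold higher (adjusted p = 0.000952). Tomm40, the channel, was 1.55-fold lower (adjusted p = 0.000317). In IF16 against AL edgeR called 0 of the 15, with 4 at an unadjusted p under 0.05, and DESeq2 called 1. In EOD against IF16, 3 were higher and 1 lower. Of 20 other mitochondrial transporters, 2 rose and 6 fell in EOD against AL (40% called, near the share of all genes), and 1 rose and 1 fell in IF16 against AL. Mpc2, of the pyruvate carrier, was 2.15-fold higher in EOD than in AL (adjusted p = 3.98e-05). Abcb8, an ABC transporter, was 1.90-fold lower (adjusted p = 9.57e-06).

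Enzymes that make or use citrate, malate and aspartate had 3 of 17 higher and 9 lower in EOD against AL (17.6% and 52.9%), and 1 higher and 1 lower in IF16 against AL. Acly, which splits exported citrate, was 5.80-fold lower in EOD than in AL, at 45.6 ± 7.81 CPM in EOD and 264 ± 73.3 CPM in AL (log2 fold change -2.54, SE 0.28, adjusted p = 1.15e-05; SD, n = 5 each). Citrate synthase, Cs, was 1.52-fold lower (adjusted p = 0.00026). Idh2, which makes mitochondrial NADPH, was 1.86-fold higher (adjusted p = 1.49e-05). ATP synthase genes had 7 of 16 higher (43.8%) and 0 lower in EOD against AL by both edgeR and DESeq2, among them Atp5b at 1135 ± 204 CPM in EOD and 678 ± 112 CPM in AL (SD, n = 5 each). In IF16 against AL edgeR called 1 as higher, with 8 higher at an unadjusted p under 0.05, and DESeq2 called 2 as higher. Their median log2 fold change was 0.27 in EOD against AL and 0.27 in IF16 against AL. Of 14 heme and iron-sulfur genes, 2 rose and 3 fell in EOD against AL (35.7% called, near the share of all genes), and in IF16 against AL 0 passed by edgeR or DESeq2 and 0 had an unadjusted p under 0.05. Alad, the second enzyme of heme synthesis, was 1.80-fold lower (adjusted p = 0.000141). Of 22 enzymes of coenzyme A, NAD, thiamine, flavin, folate and S-adenosylmethionine metabolism, 7 rose and 7 fell in EOD against AL (63.6% called). Mat1a, the liver S-adenosylmethionine synthase, was 1.82-fold higher (adjusted p = 4.29e-05). Of 14 regulators, 3 rose and 2 fell in EOD against AL (35.7% called, near the share of all genes). Srebf1, which drives lipogenic genes, was 11.1-fold lower (log2 fold change -3.48, SE 0.37, adjusted p = 1.3e-05). Ppara, which drives fasting genes, was 1.89-fold higher (log2 fold change 0.92, SE 0.11, adjusted p = 1.93e-05). In IF16 against AL 1 of the 14 regulators rose, Ppara, and 2 fell, Srebf1 and Srebf2 (21.4% called, against 3.5% of all genes). Each of these IF16 calls was lost under at least 1 alternative.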

How the data were processed

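Liver mRNA was measured by RNA-seq in 15 libraries, 5 per feeding group. The deposited counts are whole-number read counts per gene, and the deposited FPKM values equal these counts scaled by gene length and library total. Per the submitters' processing notes, STAR 2.5, HTSeq 0.6.1, DESeq2 and mm10 were used, with no role stated. The strand setting of the counting is not given in the labels or files.

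Tests were run on the counts with edgeR 4.0.16 in R 4.3.3 (filterByExpr with a minimum count of 10, TMM, robust quasi-likelihood F test, all 15 libraries in 1 fit with a mean per group). Benjamini-Hochberg adjustment ran over all 13837 tested genes, with 0.05 as the threshold, and every adjusted p is from this test unless another is named. SEs were taken from the fold change and its F statistic, so they carry the same information as the unadjusted p. The common biological coefficient of variation was 0.211. CPM are TMM-scaled. Pair ratios used log2 of FPKM plus 0.1. The fit was tested on simulated data.

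The counts of members include 1 carrier whose own values are not reported here. Members, roles and gene lists were chosen with earlier results of these data known. Values of each library were printed for the 21 members past the threshold, the 5 most abundant and the genes of the 4 pairs, and up to 3 genes per list with the smallest p were named. Alternatives were DESeq2 size factors, the DESeq2 1.42.0 Wald test, other low-count filters, 2 groups alone, the replicate number as a block, leaving out libraries, and limma 3.58.1 on log2(FPKM + 1) or log2(FPKM + 0.1), with a minimum mean of 0.5 FPKM or none. A chi-square test between libraries of a group gave 23.05 to 201.3 per degree of freedom, well above sampling noise, so no library was taken as a copy of another. Promoters are RefSeq's on GRCm38.p6, and protein identities were computed from GENCODE vM21.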

Additional observations from a re-analysis of the deposited data

Results flagged for a closer look

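In 84 groups of 5 libraries tested for a library far from the rest, 4 were flagged, where chance flags about 1 in 20. Slc25a4 stood at 17.8 CPM in IF16 replicate 5, against 6.32 to 7.57 CPM in the other IF16 libraries, and this library also carried skeletal muscle transcripts. Slc25a46 was lowest in the same library, at 24.3 CPM against 28.6 to 29.3 CPM in the other IF16 libraries. AL replicate 2 was highest for both mitoferrins, Slc25a37 at 82.1 CPM against 45.1 to 51.7 CPM in the other AL libraries and Slc25a28 at 20.4 CPM against 17.5 to 18.1 CPM. The same library had the highest share of mitochondrially encoded transcripts, 15.07%. The part of these features in the flagged values was not tested.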

How the results depend on the processing

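Of the 33 carrier results past the threshold, 19 kept their call under every alternative run, 14 lost it under at least 1, 10 of them on leaving out a single library and 5 without AL replicates 4 and 5, and 0 changed direction. Of 53 named results for list genes, 40 kept their call throughout. In IF16 against AL, 4 carriers became 7 with the DESeq2 Wald test and 1 with limma on log2(FPKM + 1) without a filter, and 2 to 6 with a library left out, falling to 2 without AL replicate 4, IF16 replicate 2 or IF16 replicate 5. In EOD against AL the count was 16 to 24, and in EOD against IF16 6 to 10, with a library left out. The carrier median of IF16 against AL ran from -0.026 (without IF16 replicate 5) to 0.064. The labels do not say that replicate numbers pair the libraries, and not every same-numbered pair deviated together (correlations -0.148 to 0.235 in IF16 against AL, -0.152 to 0.255 in EOD against AL and, in EOD against IF16, 0.181 to 0.285 in replicates 1, 2, 3 and 5 but 0.0226 in replicate 4, and 4 of 15 libraries correlated best with their own number). With the replicate block, 5, 20 and 6 carriers were called in IF16 against AL, EOD against AL and EOD against IF16, and Slc25a30, Slc25a22 and Slc25a34 lost their calls in EOD against IF16.

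With single libraries left out, Slc25a37 over Slc25a28 ran from -0.41 to -0.25 in IF16 against AL, -1.02 to -0.76 in EOD against AL and -0.65 to -0.40 in EOD against IF16, and Slc25a18 over Slc25a22 from -0.77 to -0.58 in EOD against IF16. Several of these lost their call, although the smallest exact p possible with 4 libraries against 5 is 0.00794, the same as with 5 against 5. Without any 1 AL library, Slc25a37 over Slc25a28 in EOD against AL had an exact p of 0.0159, with the groups still separate. Without AL replicates 4 and 5, Slc25a37 over Slc25a28 was -0.98 in EOD and -0.46 in IF16 against AL, larger but with fewer regroupings and no longer past the threshold. With a pseudocount of 0.01 FPKM, Slc25a18 over Slc25a22 was -0.80 and no longer past it. The other sign changes were in ratios that passed nowhere. Slc25a25 over Slc25a24 was 0.01 in IF16 against AL with a pseudocount of 1 FPKM and -0.42 to 0.06 with a library left out, and in EOD against AL it was -0.33 without AL replicates 4 and 5 and -0.11 to 0.36 with a library left out. Slc25a4 over Slc25a5 in EOD against AL was -0.19 without AL replicates 4 and 5 and -0.02 to 0.20 with a library left out. The cause of these shifts was not tested. A floor of 3 counts limits statements on the carriers below 1 CPM.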
